A study of Schizosaccharomyces pombe with 8 samples.

Results

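The wild type arms of this experiment asked which transcripts of fission yeast, Schizosaccharomyces pombe, change within minutes of exposure to nitric oxide. The comparison uses 4 of the 8 arrays in the series, chosen by their titles. The treated group is the wild type strain 972h-, kept in phosphate-buffered saline for 15 min at 30 °C with 3 mM detaNONOate, a compound that gives off nitric oxide as it decays. The control group is the same strain, buffer, time and temperature with the same amount of donor that had already decomposed. Each group has 2 arrays, described as biological replicates, and cells for both groups were divided from a common flask after growth in rich yeast extract medium. The p-values measure the spread within groups of 2 such samples, pooled over all 8 arrays and moderated across genes. The other 4 arrays hold the h- strain AV25, in which pap1 was replaced by the kanMX6 marker (pap1::kanMX6), with the same 2 treatments. A total of 2896 S. pombe genes were measured by a probe set that names them alone, 2890 of them among the 5124 protein-coding genes of the reference annotation.

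Nitric oxide is a small diffusible radical. It binds haem and iron-sulfur centres, blocks respiration, and, through its oxidation products, adds nitroso groups to thiols of proteins and glutathione. Fission yeast meets such stress with the Sty1 mitogen-activated protein kinase cascade and its transcription factor Atf1, with the redox-sensing factor Pap1, and with enzymes that remove nitric oxide and restore thiols. The flavohaemoglobin gene (SPAC869.02c) and the S-nitrosoglutathione-reducing enzyme gene fmd2, well-known members of that last class, were not analysed here.

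Expression values are log2 summaries per probe set, so a difference of 1 is a 2-fold change. The pap1 probe set matched the genotypes: it had 10.11 and 10.09 in the treated arrays, against 9.90 and 9.93 in the control arrays, and lay between 2.14 and 2.35 in the 4 arrays of the deletion strain. A level of 3.41, the 95th percentile of probe sets designed for Saccharomyces cerevisiae, was taken as background, and 2812 of the 2896 genes had a mean above it. Array medians over these genes were 7.85 and 7.87 in the treated wild type arrays, against 7.94 and 7.95 in the control arrays.

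Some technical measures differed between the treated and control wild type arrays, and every result below comes from these same 4 arrays. For 7 yeast transcripts the array carries probe sets at the 5' end, in the middle and at the 3' end. The median difference of the 3' minus the 5' signal was 3.36 and 3.34 in the treated arrays, against 1.39 and 1.29 in the control arrays. At the actin transcript (ACT1) the 5' probe set had 7.57 and 7.56 in the treated arrays, against 11.36 and 11.39 in the control arrays, while the 3' probe set had 12.19 and 12.19 in treated, against 12.42 and 12.49 in control. Seen at its 5' end, therefore, the same transcript changed by -3.81, at its middle by -2.22 and at its 3' end by -0.26. The TFIID probe sets went the other way, with a 3' minus 5' difference of -0.35 and -0.40 in treated, against 1.22 and 1.23 in control. Probe sets for Bacillus RNAs (dap, lys, phe and thr), which no yeast gene encodes, also had a larger 3' minus 5' difference in the treated arrays, by 0.39 to 1.65. Hybridization controls (bioB, bioC, bioD and cre) averaged 9.67 and 9.77 in the treated arrays, against 8.58 and 8.68 in the control arrays, 1.09 higher, and this gap was 0.14 in the deletion strain. In the wild type arrays these measures and the treatment cannot be told apart, and how much of any gene's change they account for was not tested. Total RNA from whole cultures also cannot tell apart a change in every cell and a change in the number of cells that hold a transcript.

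**Figure D1:**
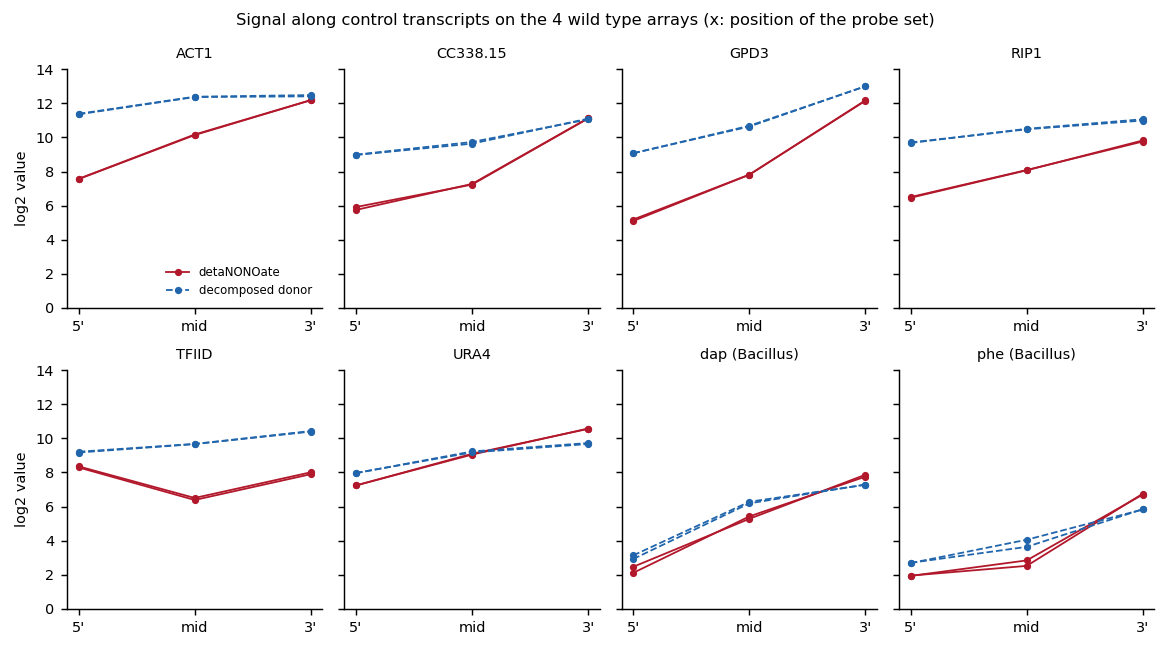
Log2 signal (y axis) of probe sets at the 5' end, the middle and the 3' end (x axis) of 6 yeast transcripts and 2 Bacillus control RNAs, with 1 line per wild type array, red for detaNONOate and dashed blue for decomposed donor. At ACT1 the lines lie -3.81 apart at the 5' end and -0.26 apart at the 3' end, and at TFIID the gap is wider in the middle, at -3.23, than at the 5' end, at -0.87.

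Most measured transcripts differed between treated and control cells, in both directions, and the falls went further than the rises. After treatment 1174 genes (40.5%) were higher and 1149 (39.7%) were lower, 80.2% together, taking an adjusted p under 0.05 (limma's moderated test with Benjamini-Hochberg adjustment) as the threshold. Rises of at least 2-fold were seen in 160 genes (5.52%) and falls of that size in 359 (12.4%). At 3-fold the counts were 9 rises and 146 falls, and at 4-fold 0 rises and 76 falls. Changes ran from -3.51 to 1.83, with 5% of genes below -1.59 and 5% above 1.03, and a median of 0.017. The replicates were close: the median gap between the 2 arrays was 0.071 in the treated group and 0.048 in the control group. For 2611 genes (90.2%) the treated and control arrays did not overlap at all, so a lack of overlap does not set a gene apart from the others. These directions hold on the scale as deposited. When the arrays were instead scaled to the hybridization controls, every gene's change was lower by 1.09, which turned the split into 40 higher and 2666 lower, with 0 rises and 1594 falls of 2-fold, so each rise given below is a rise relative to the other genes on the array.

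**Figure D2:**
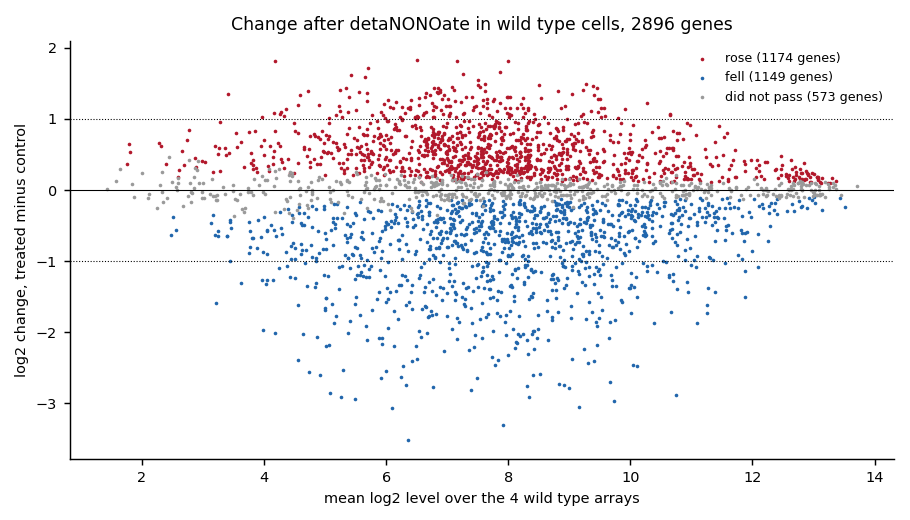
Log2 change of each of 2896 genes, treated minus control (y axis), against its mean log2 level over the 4 wild type arrays (x axis), in red for the 1174 that rose, blue for the 1149 that fell and grey for the rest. Dotted lines mark 2-fold, and the falls reach -3.51 where the rises stop at 1.83.

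The balance of rises and falls varied with gene length. In the quintile of shortest genes (145 to 1167 bases) the median change was 0.17. There 10.3% rose and 4.13% fell by 2-fold or more. In the middle quintile (1631 to 2146 bases) the median was -0.10, and 3.81% rose and 17.3% fell that far. In the quintile of longest genes (3005 to 15232 bases) the median was 0.020, with 5.35% and 9.33%. How much of any gene's change goes with its length was not tested. Across genes the rank correlation of change with length was -0.10, a description over genes that share their arrays.

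The largest fall belonged to erg31 (SPAC1687.16C), which encodes a C-5 sterol desaturase of ergosterol synthesis. It had 4.75 and 4.47 in the treated arrays, against 8.11 and 8.12 in the control arrays. The control arrays stood far above the treated ones, with a change of -3.51 ± 0.093 (SE, n = 2 arrays a group), 11.4-fold lower, with a limma adjusted p of 1.0e-07. Its paralogue erg32 moved much less, with a change of -0.76. Next came psy1 (SPCC825.03C), the syntaxin-like SNARE of the plasma membrane that vesicles dock on. It read 6.15 and 6.36 in the treated arrays, against 9.55 and 9.56 in the control arrays. The groups were separated by more than 3 units, and the change was -3.30 ± 0.079. The NEDD8-specific protease gene nep2 had 4.51 and 4.59 in the treated arrays, against 7.60 and 7.65 in the control arrays, a change of -3.07 ± 0.083.

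The TATA-binding protein gene tbp1 had 7.61 and 7.67 in the treated arrays, against 10.72 and 10.66 in the control arrays, and the H2B histone gene htb1, the single H2B gene of this yeast, had 9.32 and 9.31 in the treated arrays, against 12.19 and 12.19 in the control arrays. The changes of tbp1 and htb1 were -3.05 ± 0.051 and -2.88 ± 0.055. The array's TFIID control probe sets changed by -0.87 at the 5' end, -3.23 in the middle and -2.46 at the 3' end. The DNA-binding protein gene sap1, which acts at the mating-type switch and at replication barriers, had 4.11 and 3.93 in the treated arrays, against 6.97 and 6.94 in the control arrays. The cell wall protein gene psu1 had 6.86 and 6.89 in the treated arrays, against 9.79 and 9.79 in the control arrays. The coenzyme Q-binding protein gene coq10 had 3.87 and 3.73 in the treated arrays, against 6.68 and 6.73 in the control arrays, so treated levels lay close to background. Others of the 15 largest falls were rds1 (-2.96), the kinase gene sck2 (-2.85), the nuclear membrane protein gene bqt3 (-2.82), the inner-membrane protein gene tim18 (-2.79), the RNA-binding protein gene rnc1 (-2.77), but2 (-2.76) and the synaptobrevin gene syb1 (-2.75).

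The largest rises were smaller than the largest falls. The gene pop8 (SPBC1709.20), which encodes a subunit of the RNase P and RNase MRP enzymes, had 7.45 and 7.39 in the treated arrays, against 5.47 and 5.70 in the control arrays. It changed by 1.83 ± 0.082, 3.56-fold. The monopolin subunit gene csm1, which keeps sister kinetochores facing one pole, had 8.01 and 8.12 in the treated arrays, against 6.27 and 6.22 in the control arrays, and the Golgi tether gene cog5 had 8.89 and 8.90 in the treated arrays, against 7.12 and 7.06 in the control arrays. Their changes were 1.82 ± 0.062 and 1.81 ± 0.056. The alkyltransferase-like DNA repair gene atl1 followed with a change of 1.72, and mfm2, a gene for the M-factor pheromone, with 1.66. The remaining 10 of the 15 largest rises were mhf1 (1.63), a histone-fold partner of the FANCM-type helicase, stc1 (1.63), which links RNA interference to histone methylation, the meiotic centromere protector sgo1 (1.59), the mitochondrial ribosomal protein gene mrpl44 (1.55), the vacuolar ATPase gene vma7 (1.50), the diphthamide synthesis gene dph4 (1.49), the histone methyltransferase gene set7 (1.48), the INO80 subunit gene ies6 (1.47), the ribosome assembly gene cgr1 (1.46) and cdd1 (1.45). The locus tags of cgr1 and cdd1 are consecutive. The dynactin gene ssm4 is left out of these because its control mean, 3.27, was under background, against a treated mean of 5.09, at least 3.21-fold higher. Among these 30 genes the largest gap between replicate arrays was 0.36 and the largest limma adjusted p was 2.3e-06. The rule that chose them required an adjusted p under 0.05 and groups without overlap, so neither is a separate result.

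**Figure D3:**
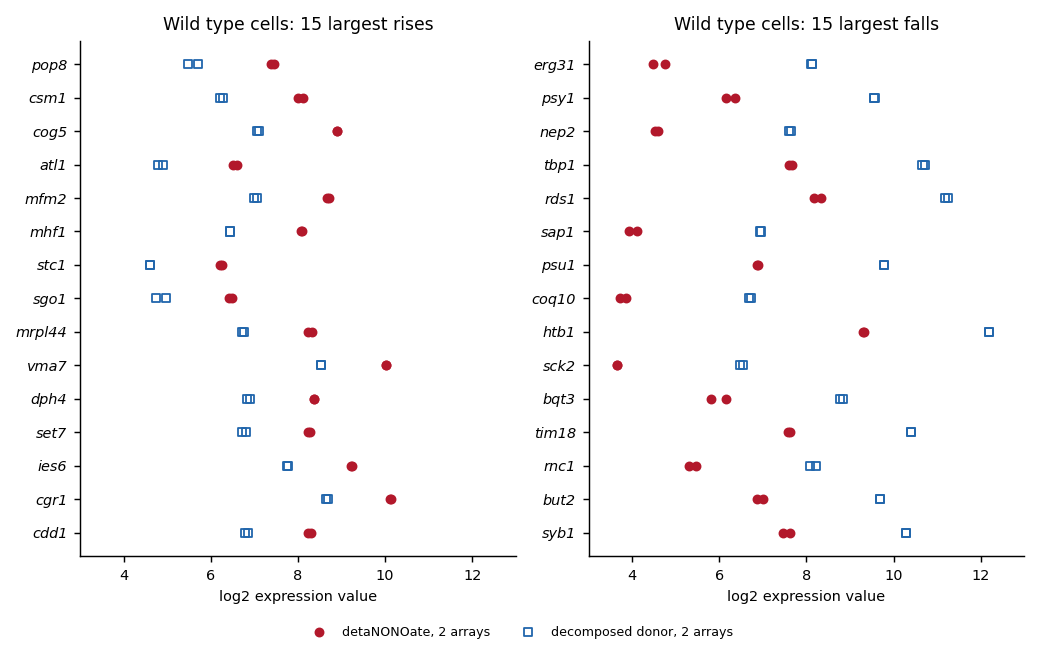
Log2 expression value (x axis) of the 15 genes with the largest rise (left) and the 15 with the largest fall (right) in wild type cells, with filled red points for the 2 treated arrays and open blue squares for the 2 control arrays. The groups are separate in every row because the choice of genes required it, and the replicate points differ by at most 0.36.

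Genes of the Sty1 stress cascade were lower after treatment almost throughout. Of 16 measured genes for the kinases, phosphatases and inputs of the cascade, 15 fell (93.8%, against 39.7% of all genes), and the median change was -0.999. The one that rose, wis4, a kinase that activates Wis1, changed by 0.29 and lost its call when any 1 wild type array was left out (adjusted p 0.053 to 0.21). At the top of the cascade the phosphotransfer protein gene mpr1 had 5.22 and 5.34 in the treated arrays, against 7.02 and 7.16 in the control arrays. The response regulator gene mcs4 changed by -1.02. Below it, the kinase kinase gene wis1 had 7.68 and 7.75 in the treated arrays, against 8.50 and 8.39 in the control arrays, and the kinase gene sty1 itself had 8.73 and 8.72 in the treated arrays, against 9.93 and 9.94 in the control arrays. The changes of mpr1, wis1 and sty1 were -1.81 ± 0.072, -0.73 ± 0.050 and -1.21 ± 0.057. The phosphatases that switch Sty1 off were lower too: all 4 genes of the ptc1 to ptc4 protein phosphatase 2C group fell, ptc1 most (-2.25) and ptc3 least (-1.09), and the tyrosine phosphatase genes pyp1 and pyp2 changed by -1.06 and -0.98.

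Among 19 factors and kinases placed downstream of Sty1, 15 fell, 3 rose and the median was -1.09. Those are 78.9% and 15.8%, against 39.7% and 40.5% of all genes. The gene of the bZIP factor Atf1 had 8.03 and 7.88 in the treated arrays, against 9.67 and 9.67 in the control arrays. Its dimer partner pcr1 had 7.10 and 7.23 in the treated arrays, against 9.44 and 9.49 in the control arrays. In both cases the control arrays were clearly higher, with changes of -1.71 ± 0.075 (adjusted p 7.9e-07) and -2.30 ± 0.060 (adjusted p 1.0e-07). A further bZIP gene, atf21, had 3.82 and 3.41 in the treated arrays, against 6.21 and 6.23 in the control arrays, so that 1 of its treated arrays lay at the background level, and its change was -2.61 ± 0.13. The Sty1-activated kinase gene srk1 had 8.07 and 8.12 in the treated arrays, against 10.54 and 10.52 in the control arrays, a change of -2.44 ± 0.043. Genes for the RNA-binding proteins csx1, which stabilises atf1 mRNA, cip1 and cip2 changed by -1.80, -1.38 and -2.40. The gene of the heat shock factor, hsf1, changed by -0.80, and that of Pap1 by 0.19 ± 0.042 (adjusted p 0.0043). Of the targets that Atf1 and Pap1 share, the catalase gene ctt1 had 11.92 and 11.87 in the treated arrays, against 12.63 and 12.59 in the control arrays, and fell by 0.72 on the log2 scale.

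Transcripts for nutrient sensing through cyclic AMP and protein kinase A, which reports glucose, were also mostly lower. Of 16 measured genes 11 fell and 2 rose (68.8% and 12.5%, against 39.7% and 40.5% of all genes), with a median change of -1.11. Genes on opposing sides of the pathway fell together. The catalytic subunit gene pka1 had 7.82 and 7.78 in the treated arrays, against 9.63 and 9.63 in the control arrays, and the regulatory subunit gene cgs1, which holds it inactive, had 7.39 and 7.22 in the treated arrays, against 9.52 and 9.56 in the control arrays. Neither gene's groups overlapped, which held for 90.2% of all genes. The phosphodiesterase gene cgs2, whose product destroys cyclic AMP, changed by -1.95, and on the side that makes it, the G-protein genes git5 and gpa2 changed by -2.11 and -1.15 and the glucose receptor gene git3 by -1.07. The adenylate cyclase gene cyr1 rose by 0.49, and so did git7 (0.90). In the TOR pathway 10 of 24 genes were higher and 11 lower, shares of 41.7% and 45.8% that lie near those over all genes (40.5% and 39.7%). After sck2, the PP6-type phosphatase gene ppe1 (-2.47) and the kinase gene ksg1 (-1.55) fell furthest, while tor1 and tor2, the kinases themselves, changed by -0.53 and 0.30, and the eIF2 kinase gene gcn2 by 1.01.

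Transcripts for sugar import followed the same direction. Of the 8 hexose transporter genes, 6 fell (75%, against 39.7% of all genes) and 2 did not pass the test. The transporter gene ght5 had 11.29 and 11.34 in the treated arrays, against 12.46 and 12.45 in the control arrays, and ght2 had 10.45 and 10.34 in the treated arrays, against 12.15 and 12.08 in the control arrays. Their changes were -1.14 ± 0.046 and -1.73 ± 0.063. The mean of ght1 in treated cells, 3.36, was under background and its control mean was 5.75, so its level was at least 5.06-fold lower (adjusted p 1.6e-06). Among genes of glycerol, trehalose and sugar metabolism 18 of 27 fell and 3 rose (66.7% and 11.1%, against 39.7% and 40.5% of all genes). The glycerol dehydrogenase gene gld1 had 8.85 and 8.78 in the treated arrays, against 11.23 and 11.31 in the control arrays, a change of -2.45 ± 0.051. The fructose bisphosphatase gene fbp1 (-1.75), the glycerol phosphate dehydrogenase gene gpd1 (-1.50), the transaldolase gene tal1 (-1.43) and the trehalase gene ntp1 (-1.22) were lower as well, and so was hexokinase hxk1 (-1.35).

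Cell integrity genes were mostly lower. This pathway carries signals from the cell surface to the Pmk1 kinase and to calcium signalling. Of its 21 measured genes 15 fell and 4 rose (71.4% and 19%, against 39.7% and 40.5% of all genes). In the kinase module itself, pmk1 changed by -0.92 and its activator pek1 by -0.61, whereas mkh1, the first kinase of the module, rose by 0.42. Cation transporter genes cta3 (-1.87), vcx1 (-2.04) and pmr1 (-1.12) were lower.

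In the list of cell wall and septum genes 21 of 44 fell and 14 rose (47.7% and 31.8%, against 39.7% and 40.5% of all genes), and 13 of the falls reached 2-fold. Besides psu1 the falls included ags1, the major alpha-glucan synthase gene (-1.86), and the beta-glucan synthase genes bgs4 (-1.55), bgs3 (-1.10) and bgs1 (-0.60), as well as the glucan-remodelling gene gas5 (-1.45). The septin genes split, with spn1 at -1.54 and spn3 and spn4 at 0.31 and 0.61. The mannosyltransferase genes omh2, omh3 and omh6 rose, by 0.74, 0.74 and 1.03.

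Membrane traffic genes separated by machine. The list of vesicle coat, fusion and exocyst genes had 26 of 73 higher and 35 lower. Those are 35.6% and 47.9%, against 40.5% and 39.7% of all genes. The groups of this paragraph were picked out after the values were seen. Of 14 genes for SNAREs, the proteins that fuse vesicles with their targets, 9 fell and 3 rose. Beside psy1, its vesicle partner syb1 had 7.46 and 7.62 in the treated arrays, against 10.29 and 10.28 in the control arrays, and the Golgi syntaxin gene sed5 had 4.66 and 4.53 in the treated arrays, against 7.15 and 7.33 in the control arrays. In all of these the treated arrays were more than 2 units under the control arrays. The vacuolar SNARE gene fsv1 changed by -1.57 and bet1 by -1.25. The 3 that rose were vti1, 1.16, sft1, 0.80, and sec22, 0.24. Of 8 Rab GTPase genes 5 fell, with ypt2, which guides secretory vesicles, lowest at -2.20, then ryh1 at -1.44 and ypt7 at -1.26. The COPII GTPase gene sar1 changed by -1.34.

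In the COG and TRAPP tethering complexes more genes rose than fell, and other tethering complexes were not counted apart. In the Golgi COG complex 5 of 7 genes rose and 1 fell, with a median of 0.74. Those are 71.4% and 14.3%, against 40.5% and 39.7% of all genes. Behind cog5 came cog6, which had 8.52 and 8.43 in the treated arrays, against 7.30 and 7.20 in the control arrays, then cog3 and cog8 (0.75 and 0.74), and the member that fell was cog4 (-0.69). In the TRAPP complexes, a group picked out after the values were seen, 5 of 8 rose and 2 fell. Genes for trs120, trs130 and trs23 changed by 1.15, 1.09 and 1.12, but the core subunit genes bet5 and bet3 changed by -2.18 and -1.49, so subunits of a single complex went opposite ways. Of 13 vacuolar ATPase genes 5 were higher and 6 lower, close to the shares over all genes, with values from vma7 at 1.50 and vma10 at 1.23 to vma8 at -0.97.

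At the endoplasmic reticulum 28 of 67 genes rose and 29 fell, 41.8% and 43.3%, near the 40.5% and 39.7% over all genes. Among genes of the translocation channel, sec62 and sec61 changed by -2.04 and -1.51, and the small subunit gene sss1 by 0.80. The chaperone gene bip1 had 10.39 and 10.49 in the treated arrays, against 12.05 and 12.07 in the control arrays, a change of -1.62 ± 0.046, while the unfolded-protein sensor gene ire1 rose by 0.89. In sterol and sphingolipid synthesis 25 of 39 fell (64.1%), among them, besides erg31, the enzyme genes scs7 (-2.38), erg25 (-2.09) and sur2 (-2.06). The ergosterol pathway genes erg1 and erg11 changed less, by -0.84 and -0.82. The sterol-responsive factor genes sre1 and sre2 changed by 0.39 and -1.99.

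Mitochondrial genes gave mixed counts. Of 61 genes for the respiratory chain and its assembly, 23 rose and 28 fell (37.7% and 45.9%), near the 40.5% and 39.7% over all genes. The sign of their median, -0.098, turned to 0.036 with quantile normalization. Complex III, which passes electrons from coenzyme Q to cytochrome c, had 5 of 9 genes lower and 4 higher. The core subunit gene qcr1 had 7.33 and 7.12 in the treated arrays, against 9.82 and 9.81 in the control arrays, cytochrome c1 gene cyt1 had 7.63 and 7.57 in the treated arrays, against 9.66 and 9.74 in the control arrays, and the Rieske iron-sulfur protein gene rip1 had 8.63 and 8.60 in the treated arrays, against 10.73 and 10.67 in the control arrays. Their changes were, in that order, -2.59 ± 0.069, -2.10 ± 0.050 and -2.08 ± 0.041. Small subunit genes qcr8 and qcr10 rose, by 0.30 and 0.47. The 3' probe set of the RIP1 control transcript changed by -1.24, and its 5' probe set by -3.21.

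The genes for protein import into mitochondria split between its parts. Of 31 import genes 14 rose and 14 fell (45.2% each way, near the 40.5% and 39.7% over all genes). All 4 genes of the small carriers of the intermembrane space rose: tim8 (0.91), tim10 (0.88), tim13 (0.75) and tim9 (0.73). Of 10 genes for the TIM23 channel and its motor 8 fell and 1 rose, with tim44 (-1.73), tim17 (-1.69), tim14 (-1.27), tim50 (-1.26) and tim23 (-1.19) among them. For mitochondrial ribosomal proteins 27 of 48 rose (56.2%) and 15 fell (31.2%). Their ends were far apart, from mrpl44 (1.55), rsm27 (1.19) and mrpl33 (1.16) to mrp51 (-2.38), img1 (-2.15) and mrpl4 (-1.78). The iron-sulfur scaffold genes isa1 and isu1 changed by -2.38 and -2.03, and isa2 by 0.61.

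Genes that handle thiols and peroxides, the classes tied most closely to nitrosative stress, moved modestly and more often down. Of 17 glutathione, thioredoxin and glutaredoxin genes 5 rose and 10 fell, with a median of -0.16. Those are 29.4% and 58.8%, against 40.5% and 39.7% of all genes. The glutaredoxin genes grx3 and grx4 rose by 1.28 and 0.85, and grx1 and grx2 by 0.29 and 0.34, but the mitochondrial grx5 changed by -0.44. Cytosolic thioredoxin gene trx1 had 12.73 and 12.68 in the treated arrays, against 12.23 and 12.24 in the control arrays, while mitochondrial trx2 changed by -0.36. The thioredoxin reductase gene trr1 had 10.74 and 10.77 in the treated arrays, against 10.91 and 10.84 in the control arrays. Its change of -0.12 ± 0.045 passed narrowly (adjusted p 0.037) and lost the call under 7 of 11 alternatives, leaving out any 1 of 3 arrays among them (adjusted p 0.062 to 0.20). The glutathione S-transferase genes gst3 and gst2 changed by -1.83 and -0.99. All 6 measured genes for removal of peroxide and superoxide fell, beside 39.7% of all genes, by less than 2-fold each. The copper chaperone gene ccs1 and ctt1 fell most (-0.73 and -0.72), ahead of the sulfiredoxin gene srx1 (-0.56) and the superoxide dismutase gene sod1 (-0.38).

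Of 29 metal genes 12 were higher and 13 lower (41.4% and 44.8%), near the 40.5% and 39.7% over all genes. All 4 genes of the CCAAT-binding Php complex fell: php4, which shuts down iron-consuming pathways in iron starvation, changed by -1.66, and php3, php5 and php2 by -1.37, -1.34 and -0.39. The repressor gene fep1, which shuts off iron uptake, changed by -0.92. On the uptake side the ferric reductase gene frp1 had 6.34 and 6.26 in the treated arrays, against 5.09 and 5.02 in the control arrays, and the vacuolar transporter gene abc3 rose by 0.96. The zinc transporter genes zhf1 and cis4 rose by 0.81 and 1.25, and zrt1 changed by -0.65.

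Several lists of genes that act on chromosomes had rises more often than the array as a whole. Rises were counted for 55 of 100 DNA repair and checkpoint genes (55%), 36 of 61 replication genes (59.0%), 36 of 62 centromere and cohesion genes (58.1%) and 9 of 12 telomere genes (75%), beside 40.5% of all genes. In repair, besides atl1, the MutS-type gene msh1 (1.40), the scaffold gene rad4 (1.34) and the nuclease gene slx1 (1.33) rose, and the checkpoint kinase gene cds1 rose by 1.08. The ubiquitin ligase adaptor gene cdt2 changed by -1.86 and the checkpoint clamp gene hus1 by -1.12.

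At replication forks the helicase factor gene cdc45 had 7.44 and 7.56 in the treated arrays, against 5.98 and 6.14 in the control arrays, and the fork protection genes swi1 and swi3 rose by 1.43 and 1.29. The change of cdc45 was 1.44 ± 0.075. In the origin recognition complex 5 of 6 genes rose, beside 40.5% of all genes, orc4 most (1.27) and orc1 being the one that fell (-0.45). Of the MCM helicase genes 4 of 6 rose, from mcm5 (0.26) to mcm7 (1.31), mcm3 fell (-0.28) and mcm2 did not pass (-0.14). The polymerase alpha gene pol1 changed by -1.19.

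Centromere genes that rose included both monopolin genes, csm1 and mde4 (1.28), the centromere loading factor mis18 (1.14), cnp3 (1.03), the CENP-A histone gene cnp1 (0.56) and the cohesin gene psc3 (1.17). The outer kinetochore gene dad3 had a treated mean of 3.00, under background, against 4.97 in control cells, at least 2.94-fold lower (adjusted p 8.6e-06). Telomerase gene trt1 changed by 0.93 and its partner gene pof8 by 1.03, and in the protective cap ccq1, pot1, tpz1 and poz1 rose by 0.71, 0.58, 0.55 and 0.55. In heterochromatin 16 of 38 rose and 12 fell (42.1% and 31.6%, against 40.5% and 39.7% of all genes). The median was 0.025, near the 0.017 over all genes. There stc1, ers1 (1.26) and clr2 (1.10) were up and tas3 (-0.88) down. In the histone list 8 of 12 genes were lower and 1 higher (66.7% and 8.33%). Beside htb1, hta2 and hta1 for H2A changed by -1.08 and -0.92, the H2A.Z variant gene pht1 by -1.14, and ams2, which drives histone transcription, by -1.21.

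RNA processing genes moved both ways, and splicing genes rose more often than the array as a whole. Pre-mRNA splicing had 51 of 86 genes higher (59.3%) and 18 lower (20.9%), against 40.5% and 39.7% of all genes, with a median of 0.37. The U5 protein gene dim1 had 10.13 and 10.20 in the treated arrays, against 8.72 and 8.74 in the control arrays, and cwf18, cwf12, smn1 and prp3 rose by 1.41, 1.36, 1.38 and 1.21. Of 15 genes for ring proteins of the Sm type, which coat small nuclear RNAs, and the LSm type, 11 rose and 3 fell. This group was picked out after the values were seen. Within it smd2 rose most, by 1.28. The lowest was smb1, with 8.49 and 8.52 in the treated arrays, against 10.39 and 10.43 in the control arrays, a change of -1.91 ± 0.048. Of 50 genes for mRNA decay, polyadenylation and export, 21 rose and 24 fell (42% and 48%, against 40.5% and 39.7% of all genes). The exosome genes rrp6 and rrp41 and the decapping gene dcp1 rose by 1.45, 1.13 and 1.32, but the decapping gene dcp2 changed by -0.35. The poly(A)-binding and deadenylation genes pab2, pabp and caf1 changed by -1.53, -1.38 and -0.90, while the deadenylation gene ccr4 rose by 0.35. The RNA helicase gene ste13 changed by -1.71, the RNA-binding repressor gene nrd1 by -2.20 and the export gene rae1 by -1.36.

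In transcription itself, 14 of 20 Mediator genes rose and 4 fell, from med11 (1.20) to med15 (-1.62). Among 14 TFIID subunit genes 4 rose and 6 fell. Over all genes 40.5% rose and 39.7% fell. RNA polymerase genes had 17 of 31 higher and 9 lower (54.8% and 29.0%), from rpc37 (1.28) to rpb3 (-1.60). Cytosolic ribosomal protein genes barely moved: 55 of 120 rose, 9 fell, 56 did not pass, none reached 2-fold and the range was -0.60 to 0.90. The top was rpl4101, with 11.85 and 11.96 in the treated arrays, against 11.04 and 10.98 in the control arrays. Aminoacyl-tRNA synthetase genes behaved alike in size, from -0.82 to 0.70. Ribosome assembly genes spread further, from pop8 down to the RNA polymerase I factor gene rrn5 (-2.07).

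Proteasome genes were lower more often than the array as a whole. Of 33 measured, 19 fell and 4 rose (57.6% and 12.1%, against 39.7% and 40.5% of all genes). The ATPase gene rpt5 had 6.54 and 6.59 in the treated arrays, against 8.97 and 8.86 in the control arrays, a change of -2.35 ± 0.061. The genes pre10, rpn11 and pre3 changed by -1.40, -1.29 and -1.15. The list of ubiquitin-like modifier genes as a whole had 34 of 85 higher and 31 lower (40% and 36.5%), near the shares over all genes. Within it, and picked out after the values were seen, all 8 measured genes of the small modifier SUMO rose, although ulp1 and rad31 were the smallest (0.15 and 0.18) and lost their calls under 4 and 1 of the alternatives. SUMO itself, pmt3, had 10.03 and 10.02 in the treated arrays, against 8.92 and 8.93 in the control arrays. Its activating subunit uba2, conjugating enzyme hus5, ligase nse2 and protease ulp2 rose by 1.18, 0.93, 1.00 and 0.90. In the ubiquitin system ubp9, ubc6 and ubc14 changed by -2.16, -1.79 and -1.74, and the ring protein gene rbx1 rose by 1.04.

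In the list of cell cycle entry and exit genes 23 of 34 were lower (67.6%, beside 39.7% of all genes) and 7 higher. The falls lay on both sides of the G2 switch. The inhibitory kinase gene wee1 had 4.25 and 4.17 in the treated arrays, against 6.07 and 6.07 in the control arrays, the activating phosphatase gene cdc25 changed by -0.46, and their target cdc2 had 7.30 and 7.20 in the treated arrays, against 8.20 and 8.09 in the control arrays. The change of cdc2 was -0.89, and that of the cyclin gene cdc13 was -0.71. The endosulfine gene igo1, which helps cells enter mitosis or quiescence when nutrients run low, had 7.47 and 7.46 in the treated arrays, against 10.20 and 10.19 in the control arrays, a change of -2.73 ± 0.055 and the lowest on this list. In the cytoskeleton 30 of 86 genes rose and 35 fell (34.9% and 40.7%, against 40.5% and 39.7% of all genes). Rises there included ssm4 and the gamma-tubulin complex gene mod21 (1.37). The tubulin genes atb2, nda2 and nda3 changed by -1.98, -0.80 and -1.19, the polarity GTPase gene cdc42 by -1.22, the formin gene for3 by -1.34, and the actin gene act1, by its own probe set, by -0.51. The importin gene cut15 changed by -2.20. At the nuclear membrane bqt1, which tethers telomeres in meiosis, rose by 1.19, opposite to bqt3 and bqt4 (-1.07).

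The strain is of mating type h-, and markers of both mating types were measured. All 6 measured genes of h- (M) cells rose, beside 40.5% of all genes. Among them were mfm2, mfm1 (0.46), the transporter gene mam1 (0.45), the P-factor receptor gene mam2 (0.46) and the protease gene sxa2 (0.62). Of 4 genes of h+ (P) cells, map2, map3 and map4 rose (0.37, 0.61 and 1.05) and sxa1 fell (-1.37). The h+ genes were above background in h- cells, map3 for example with 5.81 and 5.96 in the treated arrays, against 5.33 and 5.22 in the control arrays. Of 74 mating and meiosis genes 35 rose (47.3%) and 17 fell (23%), against 40.5% and 39.7% of all genes. The rises included dmc1 (1.37) and ste4 (1.16), and the falls rsv2 (-2.70) and isp3 (-2.08).

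**Figure D4:**
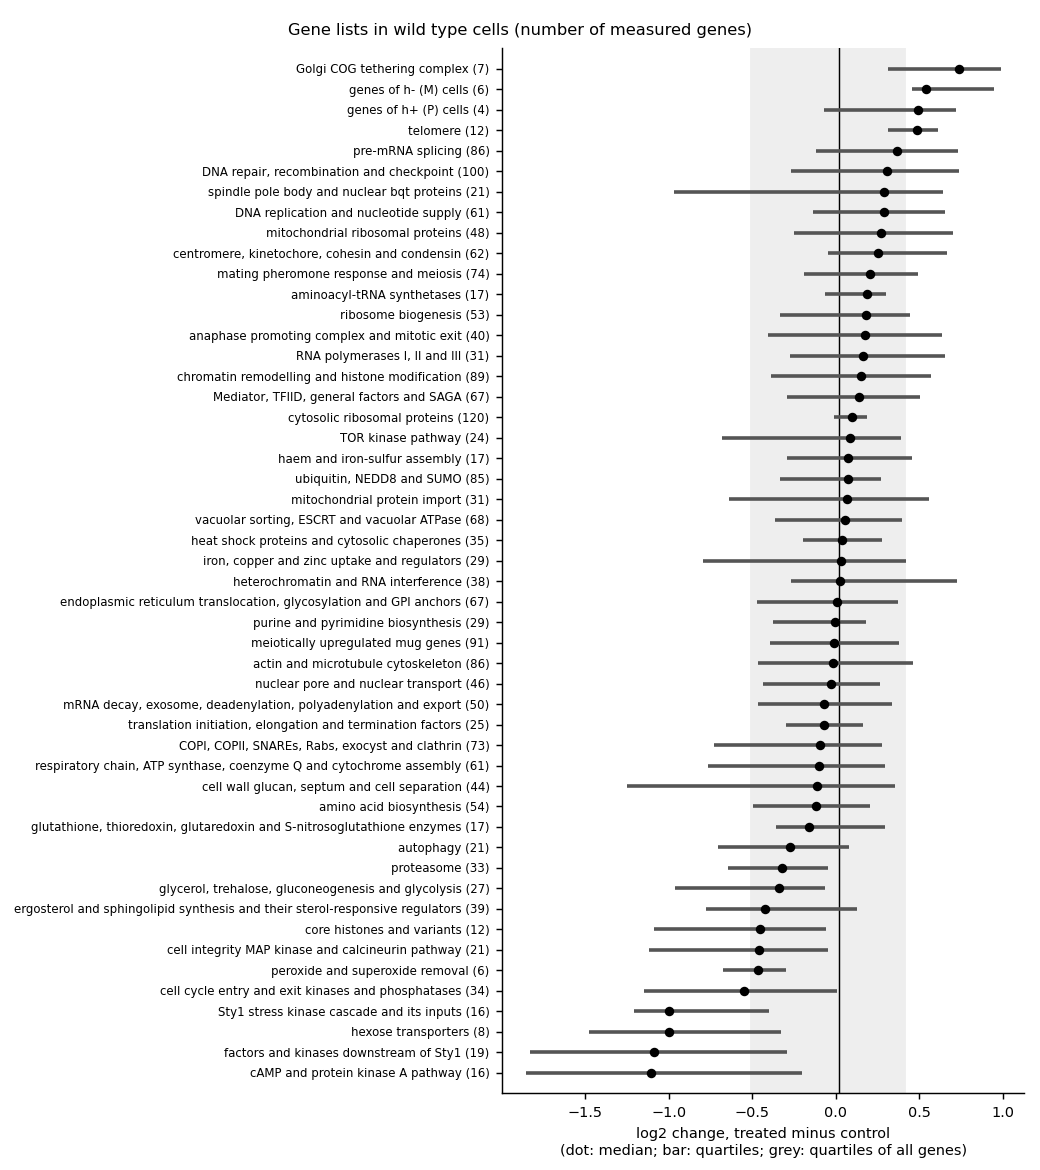
Median log2 change, treated minus control (x axis), of 50 gene lists in wild type cells on the deposited scale, as dots with bars for the quartiles of the list's genes. The vertical line is the median of all 2896 genes, 0.017, and the grey band their quartiles, -0.51 to 0.42. The cyclic AMP, Sty1 and hexose transporter lists lie near -1.1 to -1.0, and the Golgi COG list at 0.74.

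Chaperone and biosynthetic genes had medians nearer to 0. Of 35 heat shock and chaperone genes 13 rose and 13 fell (37.1% each way, near the shares over all genes), with a median of 0.035. The DnaJ-type genes mas5 and psi1 changed by -1.51 and -1.29, and the Hsp70 gene ssa1 by -0.62. Amino acid synthesis had 15 of 54 higher (27.8%) and 26 lower (48.1%), against 40.5% and 39.7% of all genes. The methionine genes met6 and sam1 changed by -1.98 and -1.73, and the histidine gene his5 by 1.15. Autophagy had 12 of 21 lower and 4 higher (57.1% and 19%, against 39.7% and 40.5% of all genes). Its genes atg4 and atg1801 changed by -1.43 and -1.42, and atg12 by 1.16.

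Set against cells lacking pap1, wild type cells had the wider spread of changes. Over all 2896 genes, 5% lay below -1.59 and 5% above 1.03 in wild type, against -0.76 and 0.62 in the deletion. The difference between the strains in response passed the test for 1711 genes (59.1%), and the absolute change was larger in wild type for 1466 of these and in the deletion for 245. Genes chosen by a called change of 2-fold in 1 strain lean to that strain by the choice itself, so both choices are given as a description. Of 519 genes chosen in wild type, 485 had a called difference with the larger change in wild type and 2 with the larger change in the deletion. Of 85 chosen in the deletion, 54 had a called difference with the larger change in wild type and 17 with the larger change in the deletion. These counts are on the deposited scale: scaling to the hybridization controls lowered every difference, wild type minus deletion, by 0.96, so that it was above 0 for 14 of the 160 rises of 2-fold, against 158 as deposited, and below 0 for all 359 falls. The direction was the same in both strains for 510 of the 519 and for all 85. The genes with the largest wild type changes are set beside their values in the deletion, with no test, since that change chose them. For erg31 the changes were -3.51 in wild type and -1.29 in the deletion, a difference of -2.22 ± 0.13. The change of psy1 was -3.30 in wild type and -1.79 in the deletion. For htb1 it was -2.88 in wild type and -1.08 without pap1. The wild type change of coq10, -2.91, stood beside -1.01 in the deletion. Of the 10 largest rises and 10 largest falls the M-factor gene mfm2 differed least, with 1.66 in wild type and 1.44 in the deletion, a difference of 0.22 ± 0.063. The 3' minus 5' difference of the control transcripts also moved further in wild type, by 2.01 against 0.99 in the deletion, and its part in the difference between strains was not tested.

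**Figure D5:**
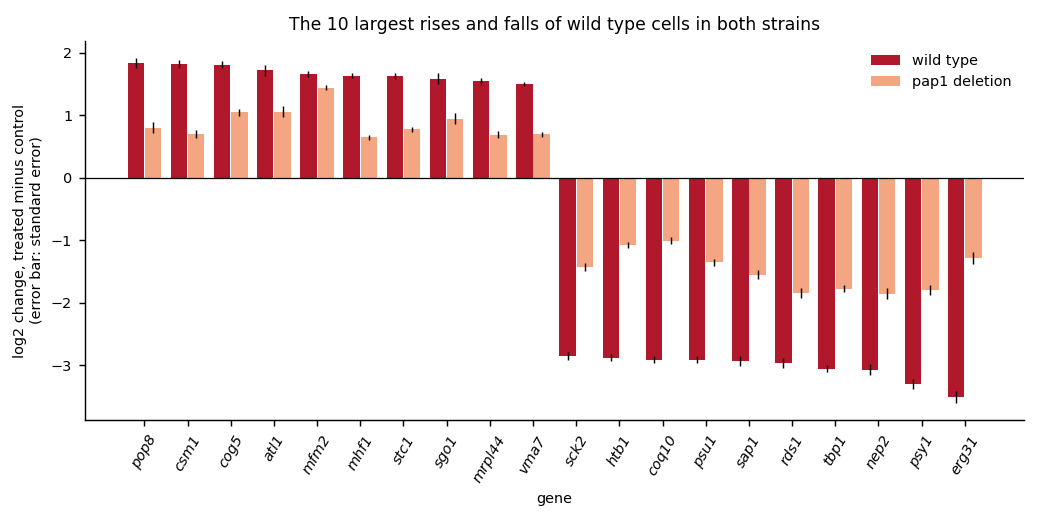
Log2 change, treated minus control (y axis), of the 10 genes with the largest rises and the 10 with the largest falls in wild type cells (x axis), in dark red for wild type and light red for the pap1 deletion, with standard errors as error bars (n = 2 arrays a group). On the deposited scale every gene moved the same way in both strains and further in wild type, erg31 by -3.51 against -1.29.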

How the data were processed

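RNA was labelled with biotin and hybridized to Affymetrix Yeast_2 arrays. The deposited values are on a log2 scale, with 1 value for each probe set. The submitters' processing notes name RMA, without a version, as the authors' method. They were used without further scaling. Of 10928 probe sets, 2914 name a single S. pombe gene, and where 14 genes had several, that with the highest mean over 8 arrays was kept, giving 2896 genes. Symbols were updated through locus tags for 110 genes, and 10 genes on shared probe sets are not named.

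Fits used limma 3.58.1 in R 4.3.3 over all 8 arrays, with 1 mean per group, eBayes without trend (4 residual and 3.07 prior degrees of freedom) and Benjamini-Hochberg adjustment over 2896 genes. A gene rose or fell at an adjusted p under 0.05. Standard errors come from the moderated fit, and 2 arrays a group limit the precision. Depth has no meaning for these arrays. In simulated data for the wild type comparison with 200 of 2896 genes changed, 64.2%, 89.6% and 97% of changes of 0.3, 0.6 and 1 were recovered, and 12 unchanged genes were called. That setting differs from the real data, where 80.2% of genes were called and technical measures differed between the groups. The simulated arrays had independent noise and no such shift, so these figures do not give the error of the real calls.

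Groups and replicate numbers come from the titles. The groups, 50 gene lists and named genes were chosen with earlier results of these data known. Named by rule were the 15 largest rises and falls with both means above background and no overlap of arrays, the 4 members of a list that changed most, and fixed genes such as pap1, atf1 and trr1 (205 genes). The other named genes, and subgroups within lists, were chosen after their values were seen. Alternatives were 3 scalings (centring, quantile normalization and, added after seeing the data, hybridization controls), the wild type arrays alone, a variance trend, a replicate block, a background filter, the mean of probe sets and leaving out each array. Some genes that the rule names are not reported here, and promoter motifs were not analysed here.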

Additional observations from a re-analysis of the deposited data

Results flagged for a closer look

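The wild type response differed from that of the pap1 deletion, by a test of the difference itself, in 1711 genes. The 20 genes that follow were chosen for their wild type change, so their differences are a description. Among the 10 largest rises of wild type cells the response was further up in wild type by 1.03 (pop8), 1.12 (csm1), 0.76 (cog5), 0.66 (atl1), 0.22 (mfm2), 0.99 (mhf1), 0.85 (stc1), 0.64 (sgo1), 0.86 (mrpl44) and 0.81 (vma7) on the log2 scale. Among the 10 largest falls the difference, wild type minus deletion, was -2.22 (erg31), -1.51 (psy1), -1.22 (nep2), -1.28 (tbp1), -1.12 (rds1), -1.38 (sap1), -1.56 (psu1), -1.90 (coq10), -1.80 (htb1) and -1.42 (sck2). Scaled to the hybridization controls, each of these differences is lower by 0.96, which turns the sign for most of the rises (a difference above 0 in 14 of 160 rises of 2-fold).

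The hybridization controls, which lie outside the gene comparison, were higher by 1.09 in the treated than in the control wild type arrays. Of 5224 probe sets with no gene name, 2208 were above background in wild type cells, and 794 of these were higher and 712 lower after treatment, with changes from -3.36 to 2.78. The highest of them went beyond the largest rise of any named gene.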

How the results depend on the processing

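Under the 11 alternatives other than the hybridization controls the counts of genes higher and lower in treated wild type cells stayed within 1.5 times those reported. Higher genes ranged from 1059 to 1359 and lower genes from 1023 to 1179, rises of 2-fold from 148 to 209 and falls of 2-fold from 307 to 366. Leaving out 1 wild type array gave 1059 to 1136 higher, 1079 to 1139 lower, and 1466 to 1742 genes with a difference between strains. A lone array in a group is then assumed to vary like the other groups. Scaling to the hybridization controls, chosen after seeing the data, gave 40 higher and 2666 lower, 0 rises and 1594 falls of 2-fold, and 2749 genes with a difference between strains, since it takes 1.09 from every wild type change.

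Of 4707 values of the 428 named genes under these alternatives, 4691 kept their direction and side of the threshold, 16 lost the call and 0 changed direction. Those 16 belonged to trr1, wis4, ulp1 and rad31. Of the 428 named genes 427 had passed the threshold in the reported fit, and the alternatives reuse the same arrays. This agreement was therefore largely set by the choice of genes. For 39 of 50 lists the sign of the median held under each of these alternatives, and the other 11 had medians between -0.12 and 0.032. Replicate numbers do not show which samples share a source: deviations of same-numbered wild type arrays correlated at -0.040. With the replicate number as a block 1129 genes were higher, 1121 lower and 1556 differed between strains. In the deletion strain the same correlation was -0.26. Signal near background limits the lowest genes, and 2 arrays a group limit all of them.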
